A study of Mus musculus with 12 samples.

Results

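The genes described here are 10 major urinary protein (Mup) genes of the mouse, namely Mup3, Mup7, Mup8, Mup9, Mup10, Mup11, Mup13, Mup17, Mup20 and Mup21. They were found by their symbols among the 56748 genes of the count table, which names 22 Mup genes with a number in all. They were picked with their levels in these livers known, so their values and differences between genotypes are given as a description, and counts of members past a threshold, printed beside the share of all genes, are not evidence of a difference. RNA-seq was done on livers of 24 h-fasted mice in 3 groups of 4. The control mice, called WT here, are labelled as floxed for Cpt1a, Cpt1b and Cpt2, without a Cre being named. SKO mice are labelled as lacking Cpt2 in the liver, and DKO mice as lacking both Atf3 and Cpt2 there. Carnitine palmitoyltransferase 2 (Cpt2) is needed for the oxidation of long-chain fatty acids in mitochondria, and ATF3 is a transcription factor induced by stress. In the study's methods the liver KOs come from crosses to Albumin-Cre mice, so that deletion is expected in hepatocytes. Deletion in single cell types of the liver was not measured. The floxed Cpt1a and Cpt1b alleles of the controls are not in the labels of the KO groups, and a floxed Atf3 allele is not in the label of the controls. No age, date or batch is given for any liver, and the labels do not say which mice were littermates.

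Major urinary proteins are small secreted lipocalins, whose barrel-shaped fold holds volatile pheromones. Hepatocytes release them into the blood, and the kidney passes them into the urine, where they slow the loss of scent signals. In the adult mouse liver most Mup mRNA is far more abundant in males than in females, which depends on the pulsed male pattern of growth hormone acting through its receptor and STAT5, with further input from androgen, thyroid hormone and glucocorticoid. The family arose by repeated duplication, and its central copies are nearly identical, so that a short read can often be placed on several of them.

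Gene counts summed to between 14710304 and 20030055 in each liver. Levels are given in CPM, counts per 1000000 with library sizes scaled across the 12 livers by TMM in edgeR, and 3 counts, the most that a count of 0 allows, are 0.145 to 0.195 CPM. Such limits cover counting error only. Cpt2 was at 199 to 250.4 CPM in WT, 109 to 158 in SKO livers and 99.9 to 125 in DKO. Atf3 was at 1.11 to 2.14 CPM in WT and 14.5 to 54 in SKO livers. In DKO livers 1 to 3 Atf3 was at 7.91, 10.8 and 13.5 CPM, above every WT liver, and in DKO 4 it was at 0.266, below them, and gene-level counts do not show which exons the reads came from. The study's text describes the sequenced mice as male. In 10 livers Xist had at most 19 counts and Uty, Kdm5d, Ddx3y and Eif2s3y, 4 genes of the Y chromosome, had 2741 to 4294 counts in sum. In SKO 3 the count of Xist was 18063 and that of the Y-linked genes 2, and in DKO 4 these counts were 20855 and 0. Because Mup expression depends on sex, the main results on the members are also given without this pair of livers. All hepatocyte markers on a list of 10 had counts, and their summed level was 90606 to 111338 CPM in WT, 51085 to 83654 in SKO livers, and 63904, 59383, 52108 and 112166 in DKO, so that every KO liver but DKO 4 lay below every WT liver. Their part in the Mup differences was not tested.

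All 22 numbered Mup genes lie on chromosome 4, between positions 59956804 and 62069100 of the table, over 2112 kb. The table names no genome build. The submitters' processing notes name GRCm38, but the table's gene positions differ from those of GENCODE on that build, so they are given only as the table has them. The members span 2003 kb of the cluster and all are annotated as protein coding on the minus strand. Mup7 (60066469 to 60070475) and Mup8 (60218621 to 60222599) lie toward the start of the cluster, and Mup20 (61968471 to 61972395), Mup3 (62001713 to 62005579) and Mup21 (62066169 to 62069100) are its last genes. The other members lie between, in the order Mup9, Mup10, Mup11, Mup13 and Mup17.

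The coding sequences show why single members are hard to count. The same 90-base stretch, bases 7 to 96 in Mup7, was taken from each member's coding sequence in the GENCODE transcripts of GRCm38. It covers most of the signal peptide and the start of the secreted protein, and matches Mup7 without gaps in all 10. Capitals mark bases that differ from Mup7.
Mup7: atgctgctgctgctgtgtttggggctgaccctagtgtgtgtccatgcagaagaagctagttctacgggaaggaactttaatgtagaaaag
Mup8: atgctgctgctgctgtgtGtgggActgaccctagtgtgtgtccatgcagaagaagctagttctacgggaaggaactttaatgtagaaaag
Mup9: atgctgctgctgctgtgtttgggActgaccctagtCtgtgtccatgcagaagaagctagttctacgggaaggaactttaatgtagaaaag
Mup10: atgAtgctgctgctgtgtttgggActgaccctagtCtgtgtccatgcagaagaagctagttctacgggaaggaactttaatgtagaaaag
Mup11: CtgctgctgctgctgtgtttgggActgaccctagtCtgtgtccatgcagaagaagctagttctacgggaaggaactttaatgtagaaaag
Mup13: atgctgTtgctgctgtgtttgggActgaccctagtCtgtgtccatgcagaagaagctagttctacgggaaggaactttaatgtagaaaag
Mup17: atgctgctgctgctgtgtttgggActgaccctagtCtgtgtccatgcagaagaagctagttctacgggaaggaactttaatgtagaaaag
Mup20: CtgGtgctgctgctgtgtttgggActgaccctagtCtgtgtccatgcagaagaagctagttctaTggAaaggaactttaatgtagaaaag
Mup3: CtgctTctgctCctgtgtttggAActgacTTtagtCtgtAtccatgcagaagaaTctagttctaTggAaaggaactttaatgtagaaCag
Mup21: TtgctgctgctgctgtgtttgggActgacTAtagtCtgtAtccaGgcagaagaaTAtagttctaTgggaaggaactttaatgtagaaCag
In this stretch Mup9 and Mup17 carry the same letters, 2 of them unlike Mup7, while Mup20 differs from Mup7 at 6 bases, Mup21 at 11 and Mup3 at 13.

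Over the whole coding sequence, Mup7, Mup8, Mup9, Mup10, Mup11, Mup13 and Mup17 form a group of near copies, with 2 to 9 differences in each of their 21 pairs and an identity of 98.3 to 99.6%. Mup9 and Mup10 are the closest pair. Mup20, which encodes darcin, a pheromone protein of male urine that attracts females, has 87.6 to 91.4% identity with the other members. Mup3 and Mup21 are most alike to each other, at 95%, and Mup3 has as little as 82.7% with Mup7. The matrix of identities shows the block of near copies and the 3 genes outside it.

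**Figure D1:**
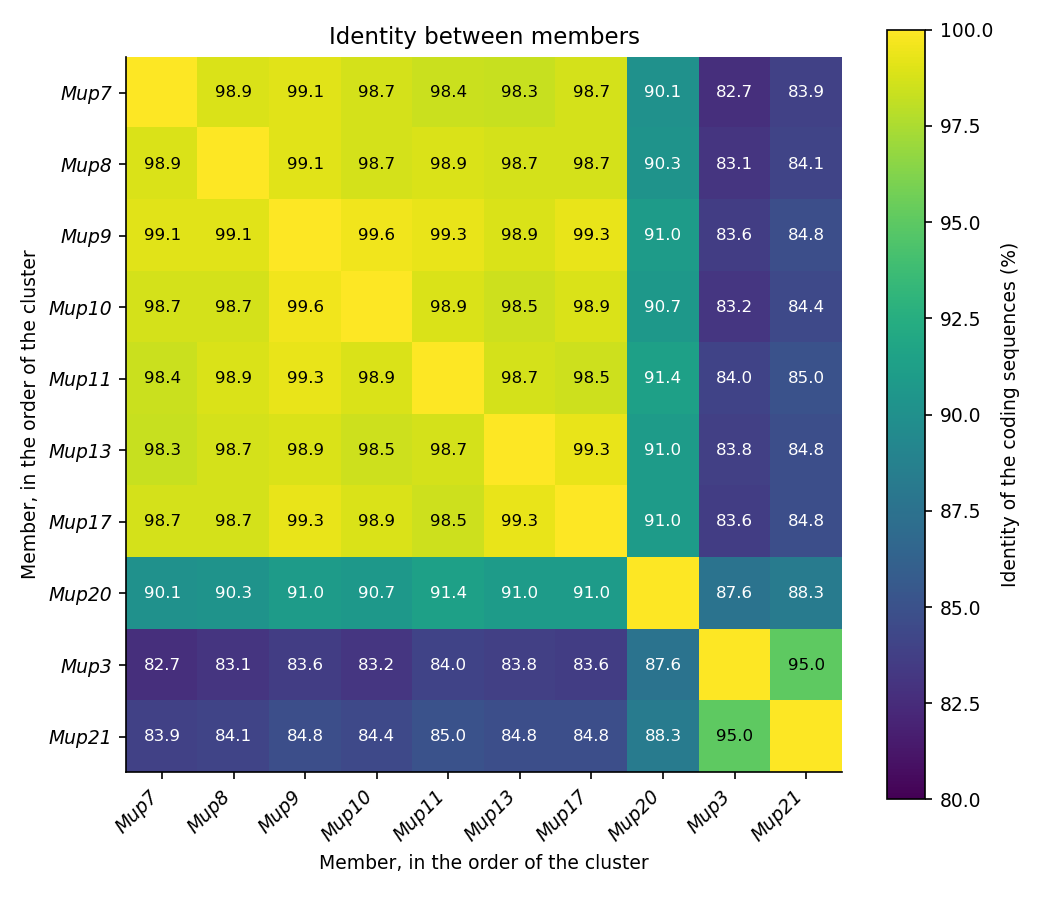
Percent identity of the coding sequences of each pair of members, with the members on both axes in the order of the cluster. Mup7 to Mup17 form a block at 98.3 to 99.6%, and Mup20, Mup3 and Mup21 fall at 82.7 to 91.4% with that block, with Mup3 and Mup21 at 95% with each other.

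How far reads can be placed follows from the transcripts. Of all 100-base windows of a transcript, the share that also occurs letter for letter in another Mup transcript was 2.94% for Mup3 and 4.5% for Mup21, so nearly all of their reads are their own. It was 38.8% for Mup20, 59.4% for Mup17 and 66.0% for Mup8. The remaining near copies shared most of their windows, from 81.6% in Mup7 to 85.9% in Mup9. Of the windows of Mup10, 85.0% occur in Mup22. How the authors treated reads that match several genes is not given in the sources used here, so the counts of the near copies are uncertain one by one, and sums over the family are given with them.

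In 5 members the RefSeq promoter (build GRCm38.p6) holds the letters of a TATA box that begins 8 to 31 bases before the annotated start site. Each sequence below is 80 bases of the minus strand ending in the TATA box, which is in capitals, and they are shown so that the promoters of near copies can be set beside those of Mup3 and Mup21.
Mup9 (chr4:60421977-60422056): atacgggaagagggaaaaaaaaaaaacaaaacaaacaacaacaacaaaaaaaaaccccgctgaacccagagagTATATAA
Mup10 (chr4:60582179-60582258): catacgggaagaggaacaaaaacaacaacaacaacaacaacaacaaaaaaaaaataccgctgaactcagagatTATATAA
Mup17 (chr4:61595851-61595930): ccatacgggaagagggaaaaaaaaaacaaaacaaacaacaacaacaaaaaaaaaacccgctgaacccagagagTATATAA
Mup3 (chr4:62087322-62087401): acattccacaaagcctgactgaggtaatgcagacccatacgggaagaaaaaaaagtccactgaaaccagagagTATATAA
Mup21 (chr4:62150843-62150922): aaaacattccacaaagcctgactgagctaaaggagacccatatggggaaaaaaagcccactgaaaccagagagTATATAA
In Mup9, Mup10 and Mup17 a long run of adenines broken by single cytosines lies before the box, and in Mup3 and Mup21 this run is short.

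Promoters of 7 members were in the RefSeq table, each from 250 bases before to 50 bases after the start. The letters TATATAA occurred on either strand in 6 of them, all but Mup7, and in 3.24% of all 32851 promoters. The STAT5 motif TTCNNNGAA occurred in 0 of the 7 and in 8.3% of all promoters, and the C/EBP motif TTGCNNAA in 0 and in 10.8%. TGTTCT, one side of the site bound by the glucocorticoid receptor, was found in Mup3 and Mup21 and in 19.0% of all promoters. These are matches of letters within 1 window, and binding was not measured.

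Mup3 had the steadiest level of the members. Mup3 was at 7512, 7462, 5856 and 7201 CPM in WT livers 1 to 4, at 3801, 3762, 1331 and 4879 in SKO livers, and at 4708, 3547, 3396 and 1935 in DKO livers. Every KO liver lay below every WT liver, and the livers with Xist counts, SKO 3 and DKO 4, were the lowest of their groups. The means were 7008 ± 779.9 CPM (SD, n = 4) in WT, 3443 ± 1500.1 in SKO livers and 3397 ± 1137 in DKO.

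Mup7, the first member of the cluster, was as abundant as Mup3 in WT livers and far more variable in the KOs. Its CPM was 8863, 8389.9, 4995 and 5939.6 in WT, 3611, 680.5, 8 and 4490 in SKO livers, and 4690.4, 2113, 1572 and 0.213 in DKO. The WT livers lay above all KO livers. In DKO 4 the gene had 4 counts and in SKO 3 it had 154, against 13300 in SKO 2, the next lowest.

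Mup17, another of the near copies, was at 1997, 1173, 2856 and 2753 CPM in WT, at 1653, 2.46, 9.25 and 1658 in SKO livers, and at 1146, 612, 104 and 48.4 in DKO. Its SKO values formed a high pair and a low pair, and SKO 2, a liver with Y-linked counts, was lower still than SKO 3. The high pair lay within the WT range, while the DKO livers all lay below it, with DKO 1 at 1146 next to WT 2 at 1173.

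For Mup20 the values were 1795, 1846, 1090.5 and 1108 CPM in WT, 744, 282, 22.6 and 824 in SKO livers, and 889.5, 892, 921 and 45.3 in DKO. All KO livers were lower than all WT livers. DKO livers 1 to 3 lay close together and DKO 4 was 19.9-fold below their mean.

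Mup11 is a near copy found at a lower level. It was at 615, 431, 427 and 432 CPM in WT, at 121, 21.1, 4.83 and 279 in SKO livers, and at 407, 186, 87.8 and 10.6 in DKO. All KO livers were below the WT livers, DKO 1 by the narrowest margin. Mup13 was at 949, 149, 201 and 20.9 CPM in WT, at 6.36, 1.64, 1.51 and 8.93 in SKO livers, and at 98.4, 36, 8.29 and 2.93 in DKO. WT 1 stood above the other WT livers and held 63.9% of the CPM summed over the 12 livers. SKO livers were all below WT, whereas 2 DKO livers lay within the WT range.

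Mup21, the close relative of Mup3, was at 85.4, 124, 44.2 and 57.4 CPM in WT, at 32.2, 25.4, 0.624 and 57.9 in SKO livers, and at 63.2, 36.1, 42.1 and 1.22 in DKO. SKO 4 and DKO 1 reached into the WT range, and SKO 3 and DKO 4 lay far below all other livers. Nearly all of its windows are its own, so few of these reads can come from the near copies.

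In Mup8 and Mup10 a single WT liver carried nearly all reads. Mup8 was at 3.07, 1461, 2.41 and 3.74 CPM in WT livers and at 0 to 2.13 in KO livers, and WT 2 held 23084 of its 23340 counts. Mup10 was at 3.12, 2.59, 924 and 1.54 CPM in WT and at 0.153 to 1.63 in KO livers, and WT 3 held 14206 of 14424 counts. The liver that was high for one gene was not high for the other, and no KO liver had such a level of either.

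Mup9, which differs from Mup10 by 2 coding bases, had no such liver. It was at 8.01, 4.75, 3.84 and 4.51 CPM in WT, at 0.779, 0.102, 0.052 and 4.49 in SKO livers, and at 1.74, 0.306, 0.407 and 0.479 in DKO. SKO 4 reached the WT range and no DKO liver did. The plot of members by liver shows these patterns on 1 scale.

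**Figure D2:**
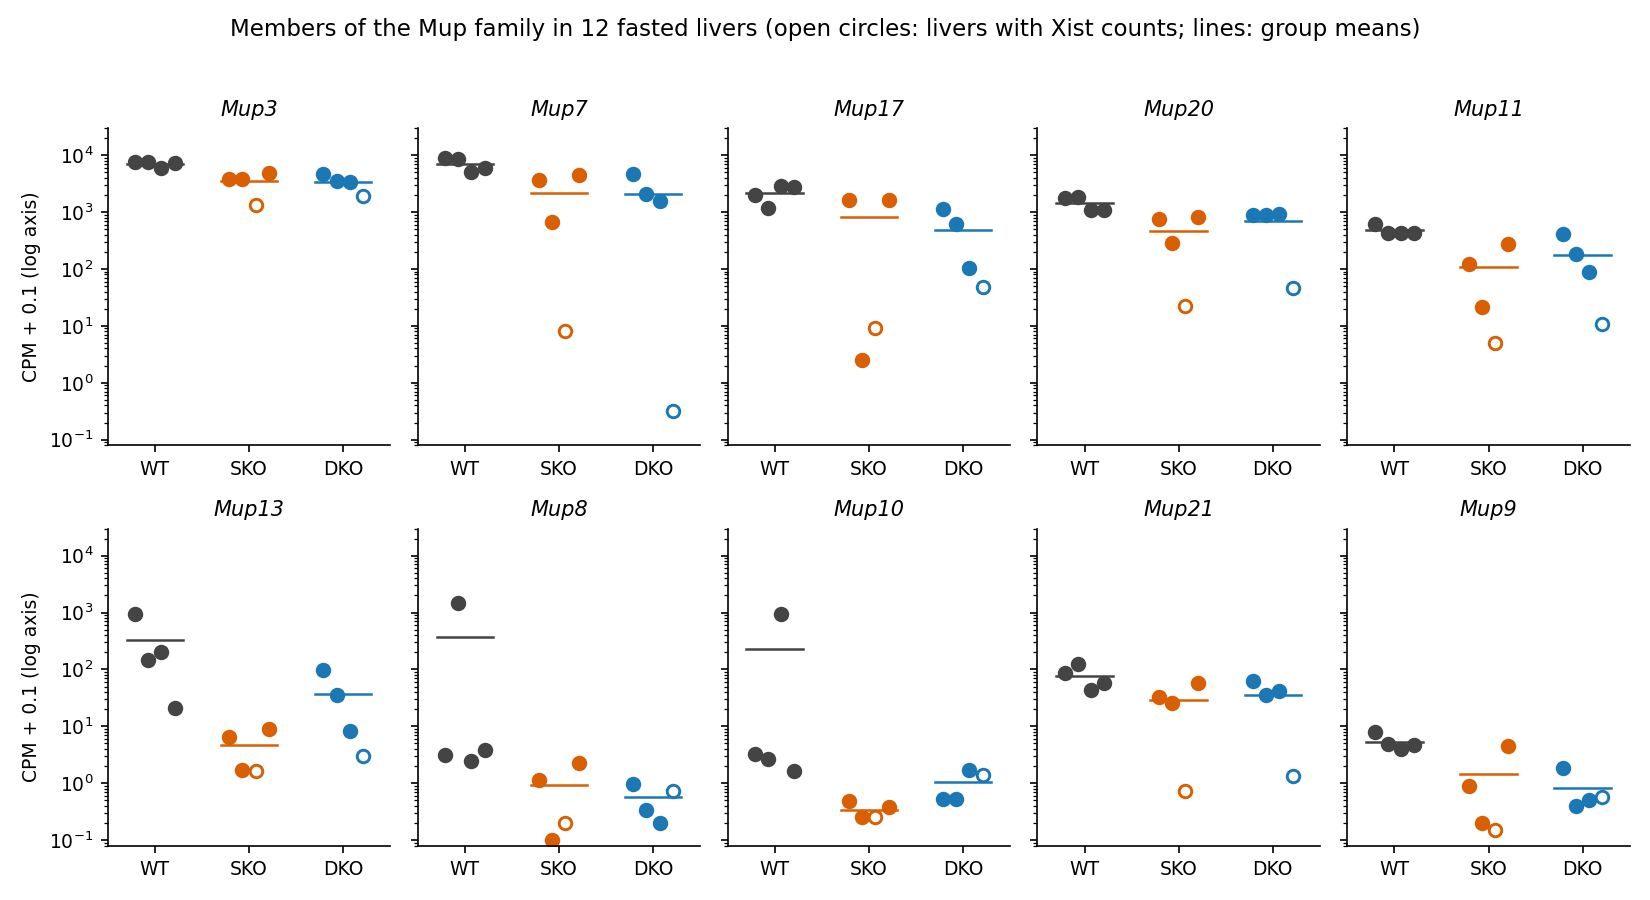
CPM plus 0.1 on a log axis for each member in each liver, with genotypes on the horizontal axis, livers 1 to 4 from left to right, lines at group means and open circles for SKO 3 and DKO 4. The WT points of Mup3, Mup7, Mup20 and Mup11 lie above all KO points, and the high means of Mup8 and Mup10 in WT come from 1 liver each.

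Levels of different members can be set side by side only per length. In CPM per kilobase of gene length, the order in WT was Mup7 (6822 ± 1814, SD, n = 4), Mup3 (6562 ± 730.2), Mup17 (2367 ± 843) and Mup20 (1573 ± 449). Mup7 and Mup3 differed by less than their SDs, and Mup17 and Mup20 overlapped. Mup8, Mup13, Mup11, Mup10 and Mup21 followed at means of 115 to 373, where the SDs of Mup8, Mup13 and Mup10 exceeded their means, and Mup9 was last at 3.52 ± 1.24. In both KO groups Mup3 came before Mup7 on this scale, at 3224 ± 1405 against 2127 ± 2117 in SKO livers and 3180.3 ± 1065 against 2027 ± 1887 in DKO. Each of these differences was smaller than the SD of Mup7.

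The sum over the 10 members is less affected by how reads were divided among copies. It was 21830.1, 21045, 16399 and 17522 CPM in WT livers, 9972, 4775, 1379 and 12204 in SKO livers, and 12005, 7423, 6134 and 2046 in DKO. Every KO liver was below every WT liver, while SKO and DKO livers overlapped over nearly their whole ranges. Members took 1.47 to 2.14% of all counts in WT, 0.145 to 1.28% in SKO livers and 0.198 to 1.27% in DKO livers. In bulk tissue, fewer cells that express these genes and less mRNA per cell cannot be told apart.

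The mean of the member sum in SKO was 36.9% of that in WT, a log2 ratio of −1.44, and in DKO it was 35.9%, a log2 ratio of −1.48. Without SKO 3 and DKO 4 the means were 46.8 and 44.4% of WT, and the WT livers still did not overlap with either KO group. DKO livers had 97.5% of the SKO mean, and 94.8% without this pair of livers, a difference far inside the spread of each group. SKO and DKO were set against the same 4 WT livers, so these comparisons are not independent. Over all 22 Mup genes the values were close to those of the members, with 37.4% of WT in SKO livers and 35.3% in DKO, or 47.8 and 43.7% without SKO 3 and DKO 4.

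The make-up of the sum differed between livers along with its size. Mup3 made up 34.4 to 41.1% of the member counts in WT livers. Its share was 38.1 and 40.0% in SKO 1 and SKO 4 and 39.2% in DKO 1, close to WT, but 78.8% in SKO 2 and 47.8 and 55.4% in DKO 2 and DKO 3. In the livers with Xist counts Mup3 was nearly all that remained, with 96.6% in SKO 3 and 94.6% in DKO 4. Without Mup3 the members summed to 10321 to 14318 CPM in WT, 47.1 to 7325 in SKO livers and 111 to 7297 in DKO. Mup7 moved the other way, from 30.5 to 40.6% of the member counts in WT to 0.581% in SKO 3 and 0.0104% in DKO 4.

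**Figure D3:**
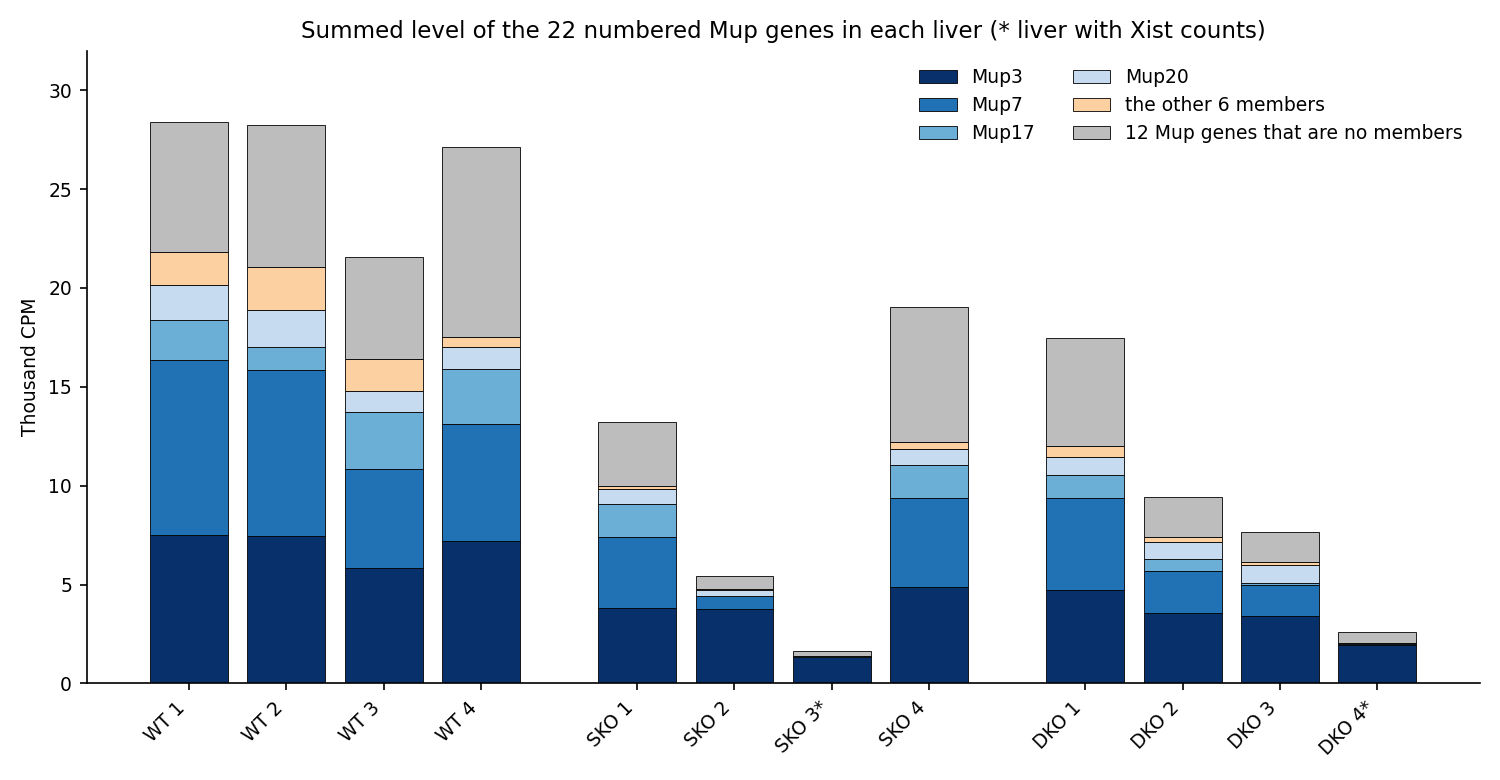
Stacked bars give the CPM, in units of 1000, of Mup3, Mup7, Mup17, Mup20, the other 6 members and the 12 Mup genes that are not members, for each of the 12 livers. The bars of WT livers are all taller than those of KO livers, and in SKO 3 and DKO 4, marked by asterisks, Mup3 is nearly the only member left.

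Within a genotype, the same livers tended to be high or low for many members. SKO 4 was the highest SKO liver for 9 of the 10 members and DKO 1 the highest DKO liver for 8. SKO 3 was the lowest SKO liver for 7 members, with SKO 2 lower for the other 3, and among SKO livers with Y-linked counts SKO 2 was the lowest for all 10. DKO 4 was the lowest DKO liver for 7 members. These counts describe single livers, and since the near copies can share reads, the members are not independent of each other.

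For each pair of genotypes edgeR's quasi-likelihood model was fitted to the counts of the 8 livers over all genes, and the log2 fold change of each member with its standard error (SE) describes its difference. Between SKO and WT it was −1.03 (SE 0.31) for Mup3, −1.69 (SE 1.04) for Mup7, −1.41 (SE 1.30) for Mup17, −1.64 (SE 0.71) for Mup20, −2.17 (SE 0.84) for Mup11 and −6.19 (SE 1.08) for Mup13. All 10 members had negative values, with a median of −1.83 against 0.03 over all 14261 genes tested. Mup8 and Mup10 had values of −8.83 and −9.89, which came from the single high WT livers, for without WT 2 the value of Mup8 was −1.95 and without WT 3 that of Mup10 was −3.32. Without WT 1, the highest WT liver for Mup13, its value was −4.78. Without SKO 3, Mup3 was at −0.76 (SE 0.16), Mup7 at −1.27 (SE 0.49) and Mup20 at −1.24 (SE 0.34), smaller differences with smaller errors. Without SKO 4, Mup7 was at −2.29, Mup11 at −3.28 and Mup9 at −4.17.

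A gene was called where its p-value, adjusted by Benjamini-Hochberg over every gene in the fit, was under 0.05. Between SKO and WT 4 members, Mup3, Mup8, Mup10 and Mup13, were past it in the lower direction, and so were 15.4% of all genes tested. Without SKO 3 it was 7 members and 15.2% of all genes, with Mup11, Mup20 and Mup21 added. In 7 members, Mup3, Mup7, Mup8, Mup10, Mup11, Mup13 and Mup20, all SKO livers were below all WT livers, which held for 16.1% of all genes tested. The members were chosen on this comparison, so nothing is read from these counts.

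Between DKO and WT the log2 fold change was −1.03 (SE 0.26) for Mup3, −1.74 (SE 1.36) for Mup7, −2.19 (SE 0.84) for Mup17, −1.08 (SE 0.68) for Mup20, −1.46 (SE 0.77) for Mup11, −3.18 (SE 1.23) for Mup13 and −2.80 (SE 0.52) for Mup9. Again all 10 values were negative, with a median of −1.97 against 0.03 over 14448 genes. Mup8 and Mup10 were at −9.56 and −7.91, and at −2.69 without WT 2 and −1.34 without WT 3. Mup13 was at −1.77 without WT 1. Without DKO 1, Mup13 was at −4.41, Mup9 at −3.69, Mup7 at −2.52, Mup11 at −2.33 and Mup17 at −3.11. Members past the threshold were Mup3, Mup8 and Mup9, 3 of 10, and 4.39% of all genes tested were called lower. Without DKO 4, 7 of 10 members and 17.5% of all genes were. In 7 members no DKO liver reached the WT range, as in 9.05% of all genes. As in SKO, nothing is read from these counts.

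DKO and SKO livers overlapped in most members. Of the 8 members tested, 4 had log2 fold changes above 0, and the median was 0.16 against 0.01 over all 14363 genes. In 0 of these 8 did the groups separate, while 1.86% of all genes tested were lower and 2.08% higher in DKO without overlap. Mup3 was at 0.00 (SE 0.38), Mup7 at −0.06 (SE 1.65), Mup20 at 0.57 (SE 0.95) and Mup17 at −0.79 (SE 1.53). Mup13 had the largest value, 3.00 (SE 0.98), with DKO 3 and DKO 4 in the SKO range and DKO 1 and DKO 2 above it. Its value was 1.77 without DKO 1. Among livers with Y-linked counts, Mup20 was at 889.5 to 921 CPM in DKO and at 282 to 824 in SKO, without overlap, while 6.09% of all genes tested there were without overlap in this direction. Mup10, with too few counts for the fit, was at 0.429 to 1.63 CPM in DKO and 0.153 to 0.389 in SKO livers, which is 3 to 32 counts per liver. The standard errors of Mup7 and Mup17 are above 1 on the log2 scale, so sizable differences in either direction could have gone undetected here.

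**Figure D4:**
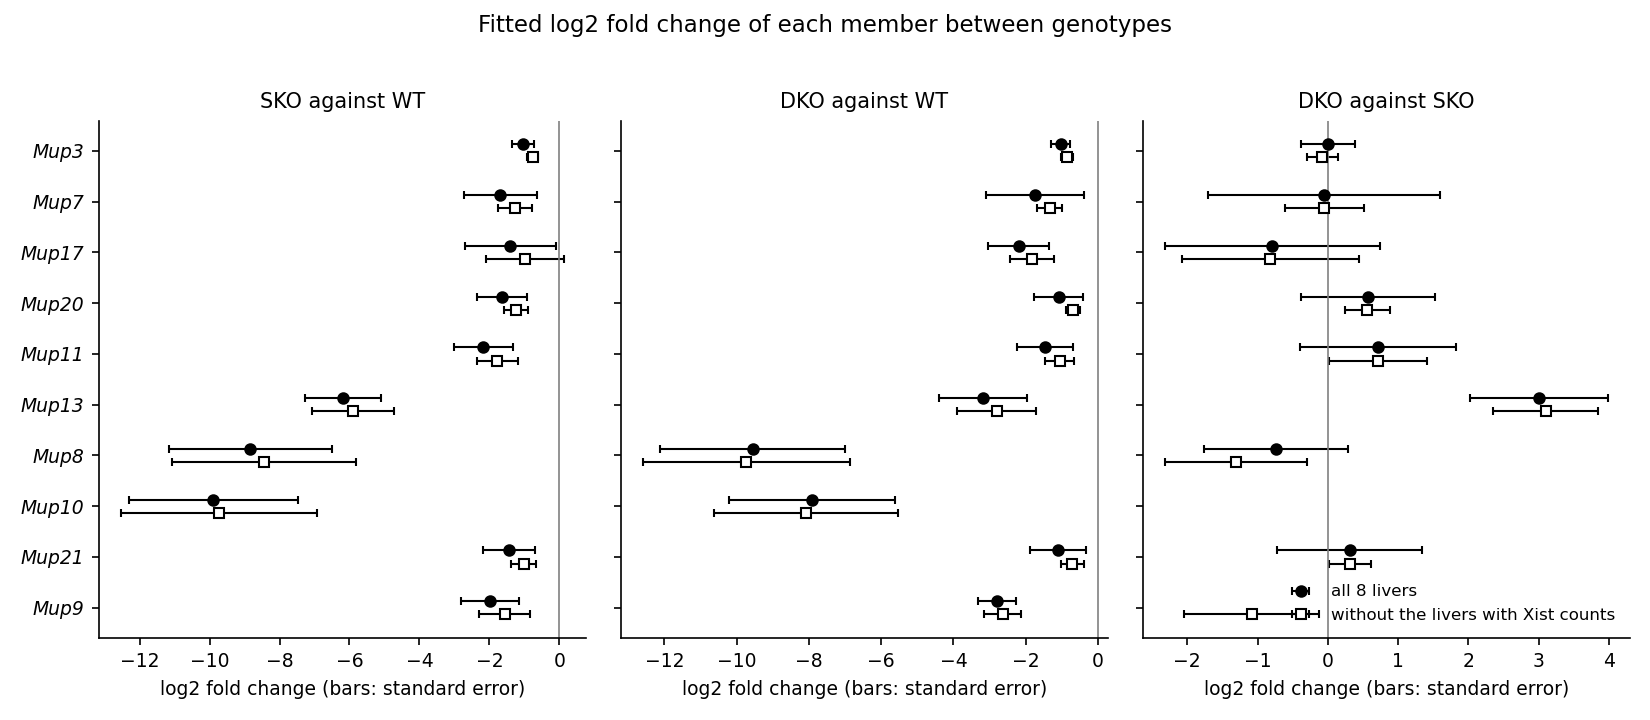
Fitted log2 fold changes of the members with bars of 1 SE for SKO against WT, DKO against WT and DKO against SKO, each panel on its own scale, from all 8 livers (filled circles) and without the livers with Xist counts (open squares). Against WT all values are below 0 and those of Mup8 and Mup10 rest on 1 WT liver, and between DKO and SKO the values lie on both sides of 0.

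The livers with Xist counts were set against the others of their genotype. SKO 3 had 6.52-fold less member sum than the mean of the other SKO livers, and DKO 4 had 4.16-fold less than the other DKO livers. Mup3 was 3.11-fold lower in SKO 3 and 2.01-fold lower in DKO 4, the smallest differences among members above 5 CPM. Mup11 was 29.1 and 21.4-fold lower, Mup20 27.3 and 19.9-fold and Mup21 61.8 and 38.5-fold. Each of these values is 1 liver against 3, without a test, and genotype-matched livers of each kind are too few to compare sexes. There is no WT liver with Xist counts.

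Albumin (Alb), named here after its values were seen, did not follow the Mup genes in this pair of livers. It was at 44518 CPM in SKO 3, against 22524 to 36570 in the other SKO livers, and at 74165 in DKO 4, against 24688 to 28454 in the other DKO livers and 51849.7 to 65151 in WT. Plasma proteins of hepatocytes in general, on a list of 22 that includes Alb, had a summed level of 129621 to 155201 CPM in WT, 67089 to 90541 in SKO livers and 70066 to 154001 in DKO, the last value being DKO 4.

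Of the 12 Mup genes that are not members, those with a WT mean of at least 100 CPM were Mup12, Mup22, Mup15, Mup14 and Mup16. Mup12 was at 3932 to 4809 CPM in WT, at 188, 406, 2.18 and 3991 in SKO livers, and at 3896, 1288, 1182 and 1.76 in DKO, so that SKO 4 and DKO 1 were near WT and the livers with Xist counts near 0. Mup22 was at 529 to 3257 CPM in WT, 224 to 1304 in SKO livers and 182 to 799 in DKO. Mup15 was at 145 to 2076 CPM in WT, 6.14 to 2128 in SKO livers and 5.64 to 483 in DKO. Mup14 (77.8 to 409.6 CPM in WT) and Mup16 (68 to 276) also had SKO 4 within the WT range, at 400.4 and 138. Mup5, known from salivary glands, had no counts in any liver.

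In the tests against WT, 10 of these 12 genes could be tested. Of these 10 genes, 1 was called lower in SKO livers, where 15.4% of all genes tested were, and 3 had values above 0, Mup19 (1.34), Mup6 (0.14) and Mup15 (0.06). Mup1 fell in SKO livers by 2.87 on the log2 scale (SE 0.71, adjusted p = 0.00949, edgeR), and Mup19 and Mup2 fell in DKO livers by 2.78 (SE 0.42, adjusted p = 0.00904) and 2.65 (SE 0.51, adjusted p = 0.0184). In DKO 4.39% of all genes tested were called lower. Without DKO 4, 5 of the 10 and 17.5% of all genes were called lower in DKO, with Mup22, Mup18 and Mup1 added at adjusted p of 0.0324, 0.0186 and 0.0152 (edgeR). Their medians were −1.40 and −1.87. The 27 Mup pseudogenes of the table summed to 80.6 to 289.8 CPM in WT, 13 to 44.9 in SKO livers and 19.6 to 88.6 in DKO.

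The gene lists below are read against all genes tested, of which 16.7% were called higher and 15.4% lower in SKO livers, and 6.06% higher and 4.39% lower in DKO. Without SKO 3 these shares were 17.3% and 15.2%, and without DKO 4 they were 18.4% and 17.5%. Male-biased liver genes outside the family were on a list of 16 that includes steroid-metabolizing cytochromes P450 and carriers. Of 15 tested, 7 were called in SKO livers and all 7 fell, against 15.4% of all genes, with a median of −1.29 over the list. They include Susd4, whose log2 fold change was −2.68 (SE 0.35, adjusted p = 0.000173), the organic anion carrier Slco1a1 (−2.60, SE 0.37, adjusted p = 0.000308) and the growth factor receptor Egfr (−1.27, SE 0.29, adjusted p = 0.00548). In DKO livers 5 of 15 were called and fell, against 4.39% of all genes, among them Slco1a1 (−2.05, SE 0.22, adjusted p = 0.00337), Susd4 (−2.83, SE 0.48, adjusted p = 0.0121) and the oxysterol hydroxylase Cyp7b1 (−1.67, SE 0.30, adjusted p = 0.0159). Without SKO 3 the SKO counts were 2 up and 10 down, and without DKO 4 the DKO counts were 1 up and 8 down. With all livers, 3 of the 15 genes had values above 0 in SKO and 2 in DKO. Cyp4a12a, also on the list, was at 136 to 191 CPM in WT. It was at 347, 215, 39 and 338 in SKO livers and 266, 250.4, 196 and 1.49 in DKO. The list's summed level was 9562 to 12583 CPM in WT, 5146, 3580.1, 733 and 7361 in SKO livers, and 7691, 4877, 3601 and 951 in DKO. Serpina1e alone gave 4758 to 7696 CPM of this level in WT. Within each KO genotype the summed level ordered the livers as the member sum did. Single genes of the list did not all keep this order, as Slco1a1 was at 12.9 CPM in SKO 2 and 31.3 in SKO 3.

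Female-biased genes did not move in 1 direction. In SKO livers 13 of 24 were tested, 4 rose and 3 fell, against 16.7 and 15.4% of all genes, and the smallest p-values were those of the proton pump subunit Atp6v0d2 (−4.64, SE 0.54, adjusted p = 7.78e-05), Tox (1.37, SE 0.24, adjusted p = 0.00122) and the sulfotransferase Sult2a8 (−1.78, SE 0.40, adjusted p = 0.00522). In DKO livers 12 were tested and Sult2a8 alone was called, at −1.20 (SE 0.18, adjusted p = 0.00904). Cyp2a4, a steroid hydroxylase with high levels in female liver, was at 139 CPM in SKO 3 and 426 in DKO 4 and at most 27.5 elsewhere. Without SKO 3 the counts in SKO were 3 genes up and 5 down. The filter on low counts kept 11 genes of the list out of the SKO test, and without it 13 were called higher and 5 lower in SKO and 8 higher in DKO. Most of the genes so added had nearly all their counts in the livers with Xist counts, such as Cyp2b13 with 1253 in SKO 3, 3966 in DKO 4 and at most 5 elsewhere. With 1 fit over all 12 livers 2 genes were called higher in SKO, and the call of Sult2a8 in DKO was lost.

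Of 13 tested genes from the growth hormone receptor to STAT5 and its targets, 3 rose and 3 fell in SKO livers, where 16.7 and 15.4% of all genes did. The receptor Ghr fell by 1.32 on the log2 scale (SE 0.16, adjusted p = 0.000101) and Igfals, which stabilizes circulating IGF1, by 1.30 (SE 0.23, adjusted p = 0.00145), while the IGF binding protein Igfbp1 rose by 2.37 (SE 0.49, adjusted p = 0.00348). In DKO livers Igfbp1 alone was called (2.28, SE 0.45, adjusted p = 0.0198). Ghr was at 383 to 430.1 CPM in WT, 128 to 210.3 in SKO livers, and 152 to 159.9 in DKO livers 1 to 3. In DKO 4, a liver with Xist counts, Ghr was at 434. Stat5b was at 59.9 to 75.6 CPM in WT, 52.4 to 80 in SKO livers and 55.2 to 61.9 in DKO. The part of these genes in the Mup differences was not tested.

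Transcription factors known to act on Mup or sex-biased liver genes were tested as a list of 15, of which 4 were called in SKO livers and 3 in DKO livers, all lower, where 15.4 and 4.39% of all genes were. Nfil3 (−1.37, SE 0.21, adjusted p = 0.000534), the retinoid receptor Rxra (−0.62, SE 0.15, adjusted p = 0.00677) and Foxa2 (−0.73, SE 0.23, adjusted p = 0.0289) had the smallest p-values in SKO. Foxa2 (−0.69, SE 0.15, adjusted p = 0.0226), Onecut1 (−1.92, SE 0.42, adjusted p = 0.0252) and Rxra (−0.67, SE 0.18, adjusted p = 0.0467) were called in DKO. The list's medians were −0.32 in both comparisons. The part of these factors in the Mup differences was not tested.

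Other lipocalins were compared as genes of the same fold. In SKO livers 9 of 12 were tested, 1 rose and 4 fell, against 16.7 and 15.4% of all genes. The odorant-binding protein Obp2a fell by 5.53 on the log2 scale (SE 0.61, adjusted p = 5.3e-05) and Apom, an apolipoprotein, by 0.74 (SE 0.12, adjusted p = 0.000584), while the acute-phase protein Orm2 rose by 2.96 (SE 0.44, adjusted p = 0.000385). In DKO livers Obp2a fell by 4.50 (SE 0.71, adjusted p = 0.0102) and Orm2 rose by 2.74 (SE 0.38, adjusted p = 0.00825). Of the 22 plasma proteins, 20 fell in SKO livers (18 without SKO 3), with a median of −0.98, and 3 fell in DKO livers, with a median of −0.59, or 20 without DKO 4. Among those that fell in SKO were Serpina1a (−1.51, SE 0.13, adjusted p = 1.1e-05), transferrin (Trf, −1.61, SE 0.14, adjusted p = 1.25e-05) and fibrinogen gamma (Fgg, −2.56, SE 0.25, adjusted p = 2.39e-05). The counts in DKO livers rested on single libraries. As each liver was left out, 1 (without DKO 3) to 8 (without DKO 4) male-biased genes, 0 to 5 transcription factors and 0 to 20 plasma proteins were called lower in DKO, with the highest each time without DKO 4. Without DKO 4, 6 female-biased genes, 5 lipocalins and 3 of 13 growth hormone genes were also called lower, where 17.5% of all genes were. In the same fit 2 growth hormone genes, 1 lipocalin and 1 male-biased gene were called higher, where 18.4% of all genes were. In SKO livers the called transcription factors numbered 2 without WT 2, WT 4 or SKO 2, and the female-biased genes that rose numbered 2 without WT 1, WT 2 or WT 4. Igfbp1 lost its call without WT 1, WT 2, WT 4, DKO 1 or DKO 3. How far this wider drop of secreted proteins takes part in the Mup result was not tested.

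Markers of other liver cells gave these values beside the Mup genes. The summed level of 10 macrophage markers was 252 to 506 CPM in WT, 233 to 572 in SKO livers and 146 to 519 in DKO, that of 8 stellate cell markers 191 to 227, 263 to 353 and 245 to 308, and that of 7 endothelial markers 168 to 372, 227 to 305 and 202 to 289. Cholangiocyte markers, 5 in number, were at 27.9 to 33.3 CPM in WT, 7.41 to 14.4 in SKO livers and 9.6 to 31.1 in DKO, and 6 lymphocyte markers at 5.11 CPM or less. The highest macrophage and cholangiocyte values of DKO were those of DKO 4. DKO livers 1 to 3 were at 146, 225 and 215 CPM for macrophage markers, below every WT liver, and at 9.6, 11.5 and 18.7 for cholangiocyte markers. With all livers 1 of the 10 macrophage markers was called lower in DKO, and without DKO 4 it was 8, with 1 called higher. In SKO livers Cd68 was the one macrophage marker called, at 2.28 (SE 0.28, adjusted p = 0.000107, edgeR). In the same comparison the stellate cell marker Dcn was at 0.61 (adjusted p = 0.0063) and the cholangiocyte markers Spp1 and Sox9 at −1.44 (adjusted p = 0.000658) and −1.87 (adjusted p = 0.0011). No marker of these lists was without counts in all livers. Their part in the Mup differences was not tested.

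Genes outside the family were ranked by how closely their log2 CPM (prior count 2) followed the log2 of the member sum over the 12 livers, among 9770 genes with a mean of at least 5 CPM. The closest was Serpina1e, a male-biased member of the alpha-1 antitrypsin family, with a Pearson r of 0.981 and a Spearman rho of 0.97. Complement C6 (0.971), Alas2, the first enzyme of erythroid heme synthesis (0.968), Cyp7b1 (0.95), Gstp-ps (0.949), the carnitine and ergothioneine carrier Slc22a4 (0.949), the glutathione transferase Gstp1 (0.945), Cyp2d9 (0.94), complement C9 (0.922) and Enpp5 (0.914) came next. Of these 10 genes, 5 are on the list of male-biased genes, and Gstp-ps and Gstp1 may share reads. Over the 10 livers with Y-linked counts their r was 0.76 to 0.99, and within the 8 KO livers 0.85 to 0.97. The points share genotype and library, and r is given as a description.

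Serpina1e was at 6481, 7696, 6101 and 4758 CPM in WT, at 1811, 1619, 135 and 3993 in SKO livers, and at 3893, 1969, 1391 and 208 in DKO. Cyp2d9, a male-specific steroid hydroxylase, was at 1845 to 2474 CPM in WT, at 1328, 729, 75.5 and 1250.3 in SKO livers, and at 1867, 1146, 898 and 51.3 in DKO. In both, the livers with Xist counts were lowest and SKO 2 was the lowest SKO liver with Y-linked counts, as in the member sum. The genes that ran most opposite were Nt5e (−0.913), Rtn4 (−0.911), St3gal6 (−0.908), Ecm1 (−0.906) and Ntn1 (−0.903), with r of −0.87 to −0.68 over the livers with Y-linked counts. The map of these genes by liver shows the same columns standing out.

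**Figure D5:**
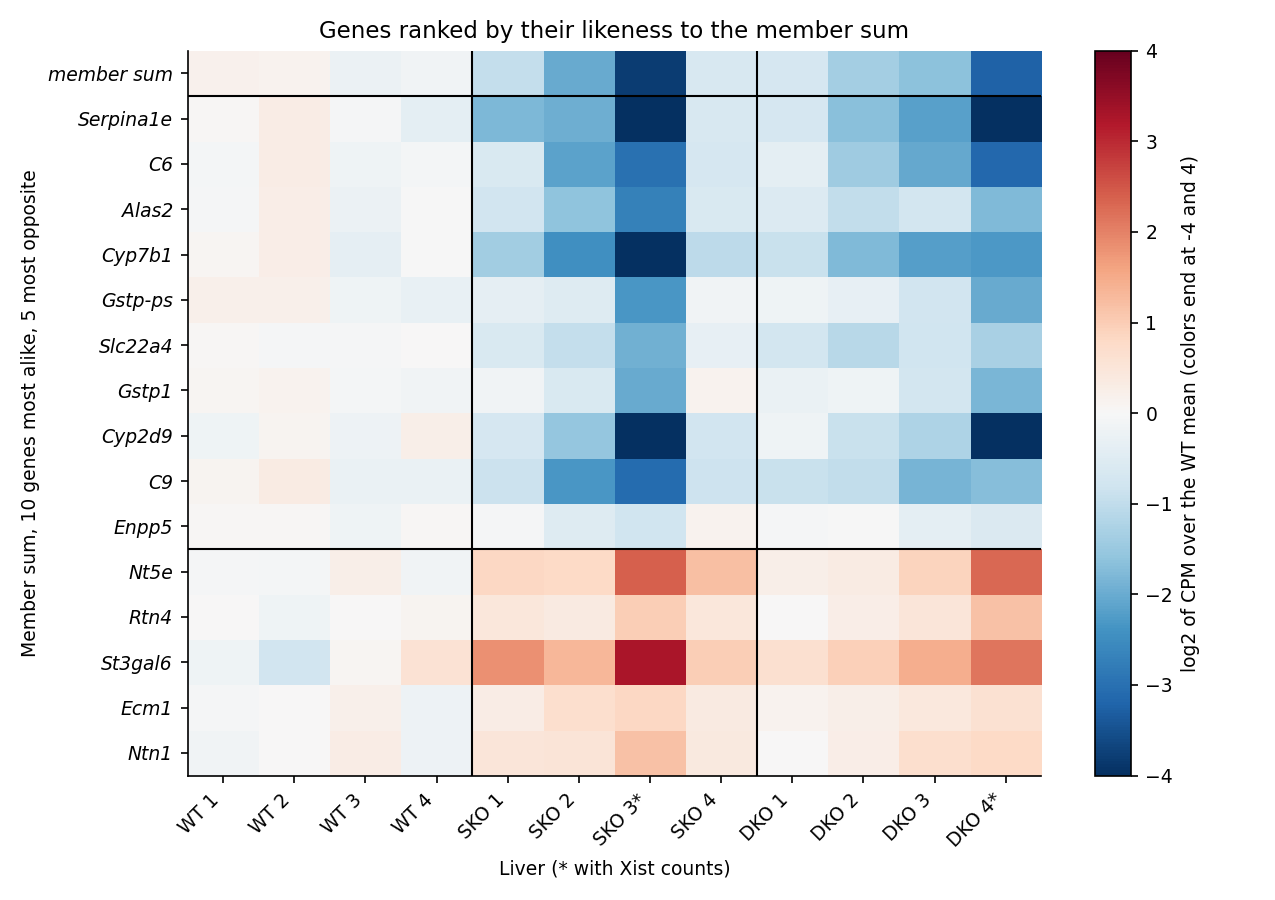
Colors give log2 of CPM over the WT mean in each of the 12 livers (columns) for the member sum, the 10 genes most alike and the 5 most opposite (rows), and end at −4 and 4. The columns of SKO 3 and DKO 4, marked by asterisks, are the deepest in most rows, and among KO livers the livers closest to WT differ from row to row.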

How the data were processed

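Liver RNA was prepared with TRIzol and RNeasy columns and sequenced by Novogene. The deposited values are read counts by gene that the authors left unnormalized. The submitters' processing notes name HISAT2 and GRCm38 (mm10). The counting program, the annotation and the treatment of reads matching several genes are not given in the sources used here. The authors' FPKM, fold changes and p-values were not used.

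CPM was computed with edgeR 4.0.16 in R 4.3.3. Genotypes were compared in pairs with filterByExpr, TMM and the quasi-likelihood test, two-sided, with adjustment over all genes tested, and members were read from these fits. Alternatives were DESeq2 1.42.0, RLE scaling, no filter, 1 fit over all 12 livers, a replicate block, library sizes without Mup rows, leaving out livers without Y-linked counts and leaving out each liver. The scripts were tested on simulated data. Members and gene lists were chosen with earlier results of these data known. Named were all members, the other numbered Mup genes with a WT mean of 100 CPM or more, the 3 tested genes of each list with the smallest p-value per comparison, and the genes ranked by likeness, though not every gene so chosen is reported here. The labels do not say that the livers of a group came from separate animals, so p-values measure the spread between these livers. No libraries of a genotype were copies, with a chi-square per degree of freedom of at least 20.6.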

Additional observations from a re-analysis of the deposited data

Results flagged for a closer look

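Each of 75 values, a Mup gene or sum in the 4 livers of a genotype, was searched for a liver whose gap to the next passed Dixon's critical value. This was so in 14. Chance alone gives about 1 in 20 for independent values, which these are not, since sums hold the single genes, near copies can share reads and a liver with any count stands apart where the others are at 0.

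Of the members, Mup8 was far highest in WT 2 (1461 CPM, others 2.41 to 3.74) and Mup10 in WT 3 (924 CPM, others 1.54 to 3.12). Mup11 was highest in WT 1 (615 CPM, others 427 to 432), though the gap is small beside its level. Mup9 was highest in SKO 4 (4.49 CPM, others 0.052 to 0.779) and in DKO 1 (1.74 CPM, others 0.306 to 0.479), and Mup20 was lowest in DKO 4 (45.3 CPM, others 889.5 to 921).

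Among the other Mup genes, Mup12 was highest in SKO 4 (3991 CPM, others 2.18 to 406), Mup15 in WT 4 (2076 CPM, others 145 to 391) and Mup16 in DKO 1 (95.3 CPM, others 13.4 to 22.8). Mup19 was highest in SKO 4 (101 CPM, others 0 to 0.714) and in DKO 1 (2.99 CPM, others 0.858 to 0.915). Mup4, whose mRNA is known from nasal glands, was highest in WT 2 (48.5 CPM, others 0 to 0.22), in DKO 3 (6.3 CPM, others at 0) and in SKO 4 (0.618 CPM, others at 0).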

How the results depend on the processing

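The member sum was lower in both KO groups than in WT under all 13 alternatives, at −1.84 to −1.10 on the log2 scale for SKO and −1.88 to −1.17 for DKO. Between DKO and SKO its main value of −0.04 changed sign with the mean of log2 CPM (0.12) and ranged from −0.45 to 0.36 as each liver was left out. Genes called between SKO and WT numbered 4576, and 3617 to 4856 under the alternatives. Between DKO and WT 1510 were called, 2635 with DESeq2, 5253 without the livers that had Xist counts, and 244 to 5253 as each liver was left out. DKO 4 gave the highest of these, and each of the other livers left 244 to 719. Between DKO and SKO 3 were called, 35 without the filter, 97 with DESeq2, 21 without the livers that had Xist counts, and 0 to 15 as each liver was left out, the highest being again without DKO 4.

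Replicate numbers are shared between groups, but same-numbered livers correlated at −0.42 to 0.15 and not every pair was over 0.1, so the numbers do not pair them. With a replicate block 691 genes were called between DKO and WT and 0 between DKO and SKO. In that last comparison the block also turned the sign of Mup3 (0.08), Mup7 (0.97) and Mup17 (1.46). Leaving out each liver moved Mup3 between −0.27 and 0.20, Mup7 between −0.84 and 0.55, Mup8 between −1.24 and 0.40, Mup11 between −0.17 and 1.82 and Mup21 between −0.12 and 0.88. Against WT no member changed sign in any alternative, and 9 values of Mup8, Mup9 and Mup10 moved by more than the spread between livers. Within that spread, the block put Mup7 at −2.92 in SKO and −2.54 in DKO, and Mup17 at −4.41 and −3.04. The cause of these changes was not tested.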
